A study of Mus musculus with 4 samples.

Results

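The genes described here are 9 mouse genes of mineralization and bone: Alpl, Spp1, Runx2, Sp7, Ibsp, Sox9, Enpp1, Mgp and Tnfrsf11b. They were picked by name from the 31896 genes on the array, with earlier results of these same arrays known, among them the differences of Alpl and Spp1 at 5 h with stimulation. Those differences are therefore given as a description. The 9 genes were covered by 12 probes. Of the genes, 6 were well above background on all 4 arrays by the scanner software's flag, 2 (Sp7 and Ibsp) on none, and Alpl on the 2 arrays taken at 5 h.

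The RNA came from 3D engineered muscle of the mouse, a cultured model of skeletal muscle grown as a tissue rather than as a layer of cells. The groups were tissue with no acute EPS at 0 min, tissue with no acute EPS at 5 h, tissue at 0 min after 30 min of acute EPS, and tissue at 5 h after the same stimulus. EPS is an electrical stimulus that makes cultured muscle contract; the labels write electrical plus stimulation, here taken to mean pulse stimulation. Each group had 1 array, all on 1 slide, and the labels name no genotype, cell source, age or number of tissues per array; the labelling protocol names leukocytes as the source of RNA where every other label names engineered muscle. A single array per group gives no measure of the spread between tissues, so no test was run and no p-value is given. A size rule of 2-fold takes the place of a test, and each difference describes 2 arrays.

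Mineral forms in bone when calcium and phosphate crystallize on a collagen matrix. Tissue-nonspecific alkaline phosphatase, the product of Alpl, breaks down pyrophosphate, an inhibitor of crystal growth that the product of Enpp1 makes. Runx2 and Sp7 are the transcription factors that commit cells to the osteoblast fate, and Sox9 is that of cartilage. Spp1 (osteopontin) and Ibsp (bone sialoprotein) are acidic matrix proteins that bind mineral and integrins, Mgp encodes a vitamin K-dependent inhibitor of soft-tissue calcification, and Tnfrsf11b encodes osteoprotegerin, the decoy receptor that blocks the osteoclast-forming cytokine RANKL. Most of these genes are also used outside the skeleton, and osteopontin is made by myoblasts and injured muscle.

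The probes on which the results turn are shown because each reads a defined stretch of its transcript. Spp1 was read at chr5:104868502-104868561 (mm9, plus strand), Alpl at chr4:137297658-137297716 (minus strand) and Runx2 at chr17:44744925-44744984 and chr17:44951128-44951187 (minus strand). Capitals mark the codons for glycine and aspartate of osteopontin's integrin-binding Arg-Gly-Asp site in the Spp1 probe, the polyadenylation signal in the Alpl probe, and the start codon in the upstream Runx2 probe. The Spp1 probe and the downstream Runx2 probe are printed whole, and the others as 30 bases of 60.
Spp1: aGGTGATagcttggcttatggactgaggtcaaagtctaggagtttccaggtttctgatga
Alpl: acaagacatttaAATAAAacatcccaaata
Runx2 downstream: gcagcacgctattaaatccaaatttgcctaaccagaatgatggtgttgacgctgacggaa
Runx2 upstream: ATGgcgtcaaacagcctcttcagcgcagtg

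The Spp1 probe thus lies in coding sequence, and the Alpl probe near the end of its transcript. The Runx2 probes are 206143 bases apart on the genome. The upstream one covers the start of the protein isoform made from the distal promoter, the isoform typical of bone, whereas the downstream one lies in the coding part that both isoforms share.

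Values are given as the processed signal, a spot's intensity after the scanner software's background correction, and as the level, the log2 of that signal minus the 75th percentile of its array (1367.87, 1095.48, 1286.87 and 1498.31 for no EPS at 0 min, EPS at 0 min, no EPS at 5 h and EPS at 5 h). Values of a gene follow this order of the arrays unless stated. On each array 19166 to 19423 genes were well above background. The error of a difference is the standard error (SE) of the scanner software's error model. It was 0.20 to 0.24 on the log2 scale for the members' EPS and time differences and covers the measurement of these RNA samples only. The model gave bright probes the same error on every array, 0.144 for Spp1 and for Mgp. Their SE of 0.20 is thus a set size to compare with, not a spread estimated from these arrays. Across probes printed 10 times, the standard deviation (SD) over spots of the EPS difference at 5 h had a median of 0.05, or 0.19 for probes with a level under -3.

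**Figure D1:**
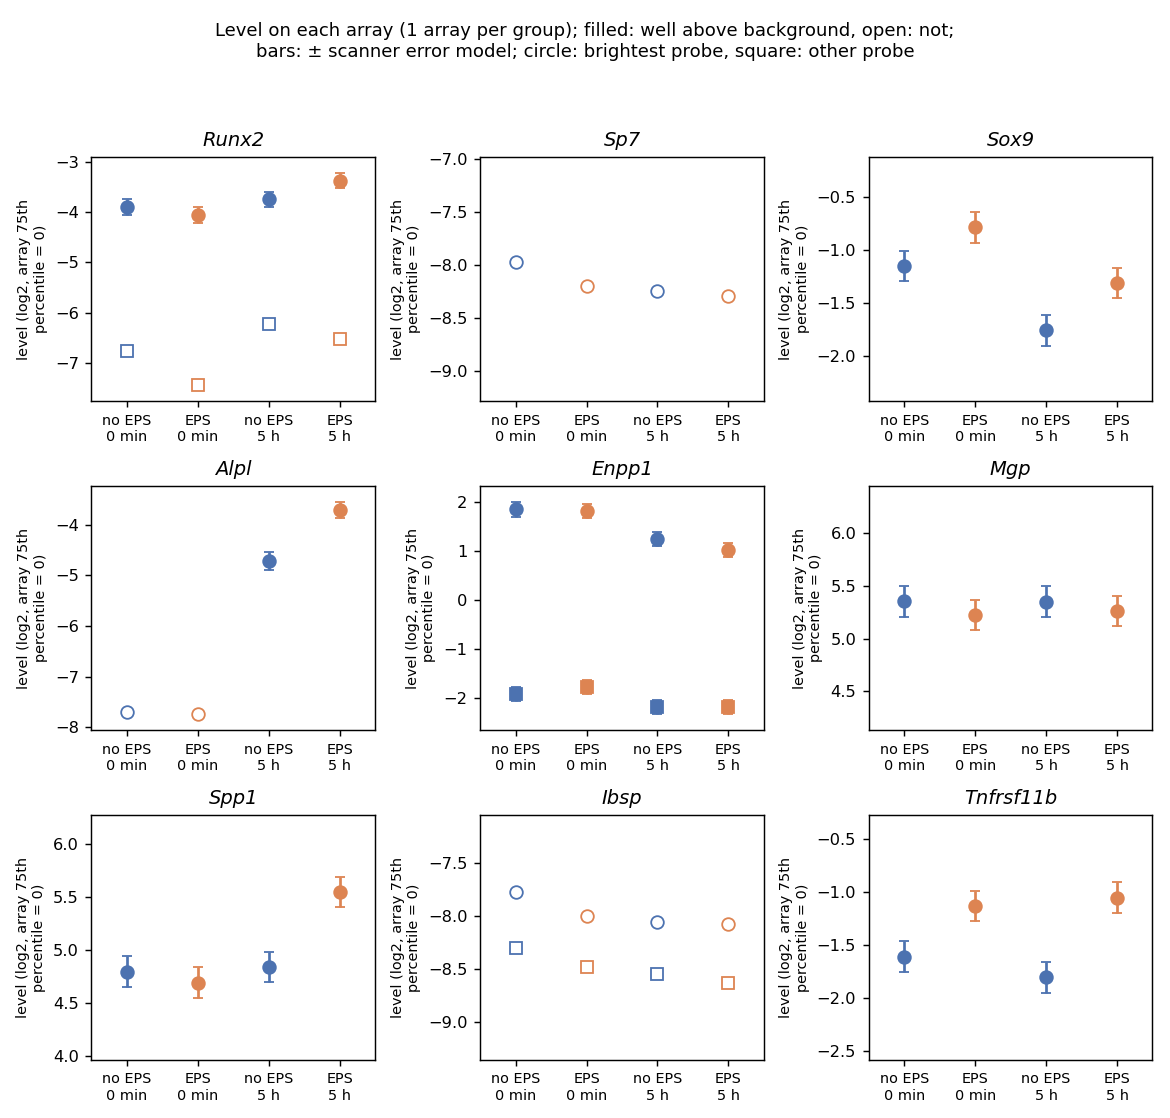
Level of the 9 genes on each of the 4 arrays (log2, array 75th percentile at 0), 1 panel per gene; filled points are well above background, open points are not, bars are the error of the scanner software's model, circles are the brightest probe and squares another probe of the gene. Alpl was well above background at 5 h alone, Spp1 stood highest on the array with EPS at 5 h (5.54 against 4.69 to 4.84), and no point of Sp7 or Ibsp is filled.

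The comparison of stimulated with unstimulated tissue at 5 h asks what acute contraction leaves behind after some hours. Of 7 members that could be measured, 5 were higher with EPS and 2 lower, and their median difference was 0.45 on the log2 scale beside -0.03 over all 18544 genes measured. Only Alpl passed 2-fold; 0.690% of all genes did so upward and 0.523% downward. Since the genes were chosen with this comparison known, nothing is read from that count. Centring arrays on their median instead of their 75th percentile turned the split over all genes from 128 higher and 97 lower into 163 and 74. Directly after EPS, at 0 min, none of 6 measured members passed 2-fold in either direction, where 0.559% of 18590 genes were higher and 0.785% lower, and the members' median was -0.07 beside 0.02 over all genes.

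**Figure D2:**
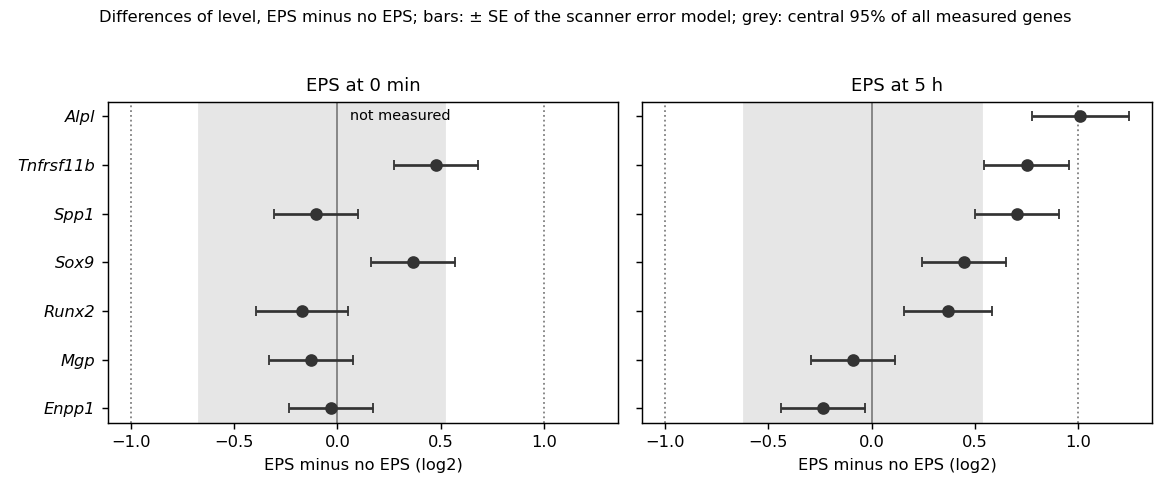
Difference of level between tissue with and without EPS at 0 min (left) and at 5 h (right) for the 7 genes measured in either comparison (log2); bars are the SE of the scanner error model, the grey band holds the central 95% of all measured genes and dotted lines mark 2-fold. At 5 h Alpl (1.01), Tnfrsf11b (0.75) and Spp1 (0.71) lie to the right of the band; at 0 min no gene does.

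Among the transcription factors, Runx2 was detected at a low level and was highest with EPS at 5 h. The signal of its downstream probe was 92.0, 65.5, 95.8 and 144, or levels of -3.89, -4.06, -3.75 and -3.38. The lowest value thus came right after EPS and the highest 5 h later. The EPS difference was -0.17 (SE 0.22) at 0 min and 0.37 (SE 0.21) at 5 h, a 1.29-fold higher level at 5 h. The first is smaller than its error. Of all genes, 4.83% had a difference as high or higher at 5 h. The upstream probe, at the start of the bone-type isoform, was not well above background on any array, with signals of 12.6, 6.34, 17.3 and 16.2. RNA was copied from oligo-dT primers, which start at the other end of the transcript, and the part of that in the dim upstream signal was not tested. Averaging both probes brought the 5 h difference of Runx2 to 0.03.

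Sp7 (osterix), which acts after Runx2 in osteoblast formation, had signals between 3.74 and 5.45 and was not well above background on any array, so it has no fold. Its probe lies at chr15:102187692-102187751 (mm9, minus strand).

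Sox9, the cartilage factor that is also present in other mesenchymal cells, was the one member with a measured spot error, since its probe was printed 10 times. It was read at chr11:112648809-112648868 (mm9, plus strand). Its mean signal was 616, 636, 381 and 604, or levels of -1.15, -0.78, -1.76 and -1.31. Both stimulated arrays stood above the unstimulated array of their own time, and both 5 h arrays below both 0 min arrays. The EPS difference was 0.37 at 0 min (SD over spots 0.07) and 0.45 at 5 h (SD over spots 0.06), that is 1.29-fold and 1.36-fold higher. With the error model, whose error was not reduced for the 10 spots, the SE of each was 0.20. The EPS differences at the 2 times differed by 0.08 (SE 0.29), less than the error.

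Among the genes that set the balance of phosphate and pyrophosphate, Alpl came above background between 0 min and 5 h in both arms and was higher with EPS. Its signal was 6.55 and 5.13 at 0 min, without and with EPS, neither well above background, and 48.7 and 114 at 5 h, both well above it. Before background correction the mean pixel signals were 63.4 and 59.6 at 0 min and 111 and 183 at 5 h, over local backgrounds of 41 to 46. So the spot brightened with time in tissue without acute EPS as well. In level, Alpl stood at -4.72 without and -3.71 with EPS at 5 h, a difference of 1.01 (2.02-fold, SE 0.24). That is 127th from the top of 18544 genes, or 0.685% at or above it. A level under -3 is in the class with the widest spot error (95th percentile 0.37). The difference was 0.49 under normexp background correction with an offset of 50, 0.69 with an offset of 16 and 0.95 with the background-subtracted signal, each under 2-fold. A comparison at 0 min was not made, since both signals were too dim.

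Enpp1, which makes pyrophosphate, was lower at 5 h than at 0 min and changed little with EPS. Its brightest probe, at chr10:24358048-24358107 (mm9, minus strand), had signals of 4896, 3840, 3046 and 3010, or levels of 1.84, 1.81, 1.24 and 1.01. Both 5 h arrays lay below both 0 min arrays. The EPS difference was -0.03 (SE 0.20) at 0 min and -0.24 (SE 0.20) at 5 h. Its other probe, at chr10:24361540-24361599, gave EPS differences of 0.15 and -0.00. Neither probe thus gave an EPS difference much beyond its SE.

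Mgp, the inhibitor of soft-tissue calcification, was bright and flat. Its signal at chr6:136821125-136821184 (mm9, minus strand) was 55819, 40871, 52455 and 57411, or levels of 5.35, 5.22, 5.35 and 5.26. The 4 levels spanned 0.13. Every EPS and time difference was under its SE of 0.20; the EPS differences were -0.13 at 0 min and -0.09 at 5 h.

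Among the matrix proteins, Spp1 was bright on every array and stood apart on one. Its signal was 37926, 28235, 36810 and 69876, or levels of 4.79, 4.69, 4.84 and 5.54. The first 3 levels differed from each other by less than the SE of a difference, and the array with EPS at 5 h lay above all of them. The EPS difference was -0.11 (SE 0.20) at 0 min and 0.71 (SE 0.20) at 5 h, a 1.63-fold higher level. The difference of these EPS differences was 0.81 (SE 0.29), and 1.71% of 18107 genes had one as high or higher; it was not tested. Over all genes, 1.99% had a difference of EPS effects past 2-fold in either direction, and none of the 6 members measured on all arrays did.

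Ibsp, the other acidic matrix protein of this group, was not well above background with either probe on any array. Its signals ranged from 3.07 to 6.27 at chr5:104740413-104740472 and chr5:104739720-104739779 (mm9, plus strand). Spp1 and Ibsp belong to the same family of neighbouring genes, of which Spp1 was thus detected on all 4 arrays and Ibsp on none.

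Tnfrsf11b, the osteoprotegerin gene, was higher with EPS at both times. Its signal at chr15:54082760-54082819 (mm9, minus strand) was 449, 500, 369 and 723, or levels of -1.61, -1.13, -1.80 and -1.05. Both stimulated arrays lay above both unstimulated arrays, the pattern that no other member with 4 measured arrays showed. The EPS difference was 0.48 (SE 0.21) at 0 min and 0.75 (SE 0.21) at 5 h, or 1.39-fold and 1.68-fold higher. Of all genes, 3.13% had a difference as high or higher at 0 min and 1.21% at 5 h. The 2 EPS differences differed by 0.27 (SE 0.29), within the error.

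The comparisons of 5 h with 0 min ask how the tissue changed over the hours of the experiment in each arm. Alpl had the largest difference of the members here, as a lower bound. Set against the lowest level well above background on the 0 min array, it was at least 2.55-fold higher at 5 h without EPS and at least 5.66-fold higher with EPS. No other member passed 2-fold, where 1.74% of 18486 genes were higher and 2.96% lower without EPS, and 2.38% of 18471 higher and 3.68% lower with EPS. Under median centring the splits over all genes, 321 higher and 548 lower without EPS and 439 and 679 with EPS, became 464 and 389, and 728 and 424; quantile normalization gave 530 and 518 with EPS.

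Spp1 was 0.04 (SE 0.20) above its 0 min level without EPS and 0.86 (SE 0.20) above it with EPS, and 1.03 under median centring. Runx2 was 0.15 (SE 0.22) and 0.69 (SE 0.22) above it, and 0.37 with EPS under normexp with an offset of 50. The time differences of the 2 arms differed by 0.81 (SE 0.29) for Spp1 and by 0.54 (SE 0.31) for Runx2. Of 18107 genes, 3.88% had such a difference as high as that of Runx2 or higher. Neither was tested, and both rest on 1 array per group. Sox9 was lower at 5 h in both arms, with differences of -0.61 (SD over spots 0.07) without and -0.53 (SD over spots 0.05) with EPS. Enpp1 differed by -0.60 and -0.80 (SE 0.20 each), and its other probe by -0.26 and -0.41 (SE 0.21 each), the same direction at a smaller size. Mgp (-0.00 and 0.04) and Tnfrsf11b (-0.19 and 0.08) stayed within their SE.

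**Figure D3:**
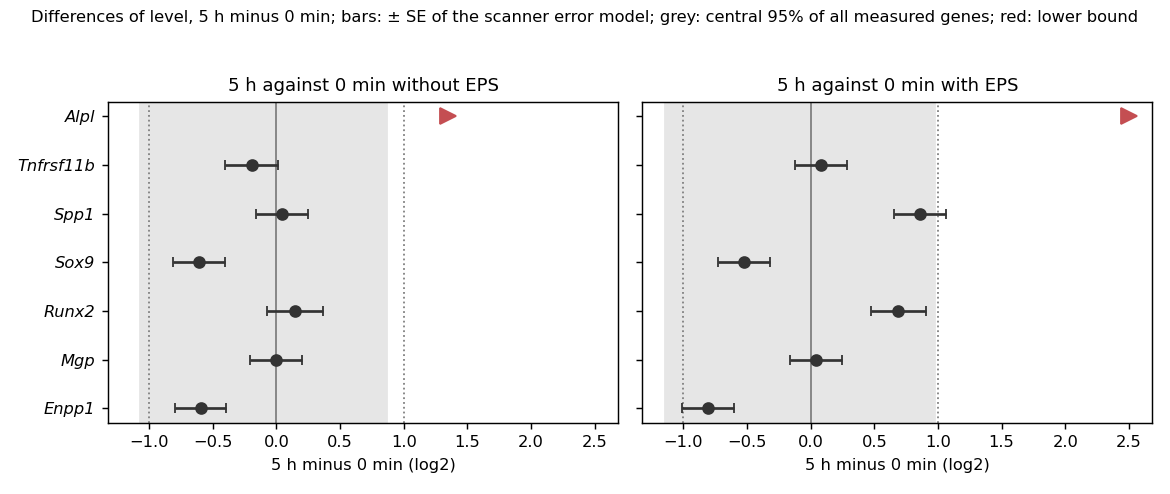
Difference of level between 5 h and 0 min without EPS (left) and with EPS (right) for 7 genes (log2); bars are the SE of the scanner error model, the grey band holds the central 95% of all measured genes, dotted lines mark 2-fold and red triangles are lower bounds. Alpl is at or beyond its bound in both arms, Spp1 (0.86) and Runx2 (0.69) are above 0 with EPS, and Enpp1 and Sox9 lie below 0 in both arms.

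The 2 time comparisons and the 2 EPS comparisons use the same 4 arrays, so a single array enters 2 of them. The array with EPS at 5 h holds the highest level of Alpl, Spp1, Runx2 and Tnfrsf11b. These are bulk RNA samples, in which more cells that make a transcript and more transcript per cell cannot be told apart.

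**Figure D4:**
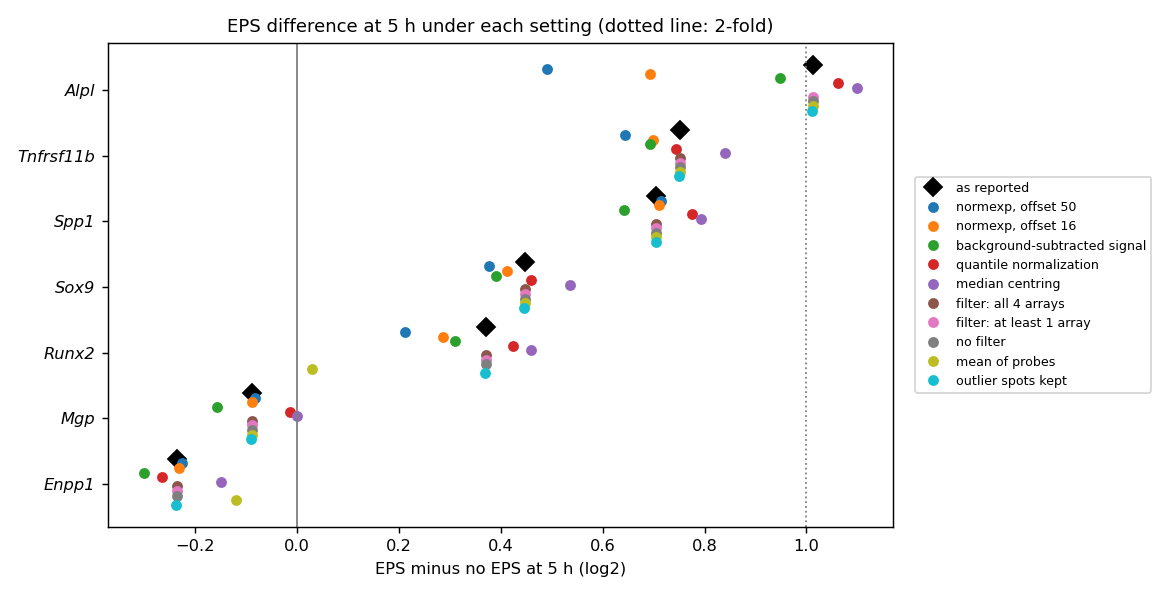
Difference of level between tissue with and without EPS at 5 h (log2) for the 7 measured genes under each processing setting (colours); the black diamond is the value reported and the dotted line marks 2-fold. Alpl ranges from 0.49 to 1.10 and crosses the line, Spp1 from 0.64 to 0.79 and Tnfrsf11b from 0.64 to 0.84 stay below it, and the one point of Runx2 near 0 (0.03) averages its 2 probes.

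The promoters of the members were searched for TGTGGT, the core letters of Runx binding sites (ACCACA on the other strand). They were also searched for TGANTCA, the letters of AP-1 sites. RefSeq windows of 300 bases (GRCm38.p6, 250 before to 50 after a start site) were given for 5 of the 9 genes: Alpl, Spp1, Runx2, Ibsp and Enpp1. TGTGGT occurred in windows of 3 of these 5, Spp1, Runx2 and Enpp1, and in windows of 18.9% of all 27025 genes, or 16.8% of all 32851 windows. TGANTCA occurred in none of them and in 7.81% of all windows. The matches before the start site, with the motif in capitals, are at chr5:104434956-104435015 (plus strand, 128 bases before the start), chr17:44814675-44814734 (minus strand, 80 bases before) and chr10:24712271-24712330 (minus strand, 144 bases before).
Spp1 promoter: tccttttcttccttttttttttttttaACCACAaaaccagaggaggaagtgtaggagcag
Runx2 promoter: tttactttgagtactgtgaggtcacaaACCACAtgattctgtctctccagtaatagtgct
Enpp1 promoter: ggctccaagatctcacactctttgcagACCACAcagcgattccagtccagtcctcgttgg

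Spp1 and Runx2, both with the motif, were highest with EPS at 5 h, and Enpp1, which also holds it, was lowest there. Alpl, also highest there, had no match in its 2 windows. The Runx2 levels came from the downstream probe, in the part that both isoforms share. They cannot be assigned to the promoter of the window searched. The upstream Runx2 probe was not well above background on any array. A match of letters is a description and shows no binding.

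Around Spp1, the receptors of osteopontin were all detected. All 8 genes of a list of osteopontin receptors were well above background on every array. Of these, 4 (Itgb3, Cd44, Itga5 and Itgb1) were highest with EPS at 5 h and the other 4 without EPS at 0 min. The share of all genes highest on each array is not given, so nothing is read from that split. For Itgb1 the EPS difference at 5 h was 0.16, under its SE of 0.20. Itgb3, the beta-3 integrin that pairs with alpha-v to bind osteopontin, had signals of 1188, 675, 1521 and 3477, or levels of -0.20, -0.70, 0.24 and 1.21. It was lowest right after EPS and highest 5 h later. Its EPS difference was -0.49 (SE 0.20) at 0 min and 0.97 (SE 0.20) at 5 h, and with EPS it stood 3.77-fold higher at 5 h than at 0 min. Cd44, the hyaluronan receptor that also binds osteopontin, was 0.43 higher with EPS at 5 h (0.14 when its probes were averaged) and stood 2.03-fold higher at 5 h than at 0 min with EPS (0.55 on the log2 scale when its probes were averaged). The partner subunit Itgav differed by 0.06 with EPS at 5 h. Of the 8 receptors none passed 2-fold with EPS at 5 h, although Itgb3 did under median centring (1.06) and as a mean of its probes (1.26). Over time with EPS 2 were past 2-fold higher and none was lower, where 2.38% of all genes were higher and 3.68% lower. The list's median with EPS at 5 h was 0.11.

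Among the other genes of bone matrix and osteocytes, most levels were lower at 5 h than at 0 min. Of 18 listed, 17 were on the array under their names and 15 were measured in each comparison, with a median of -0.18 for EPS at 5 h and none past 2-fold. Smoc1, a secreted calcium-binding protein, was the highest of them with EPS at 5 h (0.73, SE 0.30; 0.25 under normexp with an offset of 50), and Phex the lowest (-0.76, SE 0.21). Over time 3 of the 15 were past 2-fold lower in each arm, and none was higher. Of all genes, 2.96% were past 2-fold lower without EPS and 3.68% with EPS. The list's medians over time were -0.20 and -0.38, beside -0.02 and -0.08 over all genes. Phex, a cell-surface peptidase linked to phosphate balance, was 4.43-fold lower at 5 h without EPS and 7.13-fold lower with EPS, from signals of 822, 626, 174 and 120. Pth1r, the receptor for parathyroid hormone, was 2.90-fold and 3.26-fold lower. The third was Smoc1 without EPS (2.15-fold) and Omd, a small proteoglycan, with EPS (2.02-fold), both of which lay under 2-fold with some other settings. Col1a1, the main collagen of bone and also of fibroblasts, differed by -0.71 and -0.80.

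Of 19 listed genes for phosphate, pyrophosphate and matrix vesicles, 15 were measured in each comparison, and their median was -0.14 for EPS at 5 h. None passed 2-fold there. Slc20a1, a phosphate transporter, was 0.48 higher and Ank, the pyrophosphate exporter, 0.28 higher with EPS at 5 h, whereas Phospho1, a phosphatase of matrix vesicles, differed by -0.32. Ggcx, the carboxylase that activates the Mgp protein, was low on the unstimulated array at 0 min alone, with a signal of 73.1 against 348 to 409 on the other 3. That array gave its differences of 2.66 for EPS at 0 min and 2.34 over time without EPS.

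Of 16 listed osteogenic and chondrogenic transcription factors, 9 were measured and none passed 2-fold in any comparison; the median was 0.05 for EPS at 5 h. Cbfb, the partner of the Runx factors, was 0.11 higher, Runx1 0.02 and Runx3 0.37, while Dlx5 and Twist1 were below that flag on all 4 arrays. Sox6 and Zbtb16 passed the flag on 1 array each and have no fold here. Their signals were 5.03, 5.73, 3.97 and 36.5 for Sox6, and 18.6, 22.8, 12.8 and 3.72 for Zbtb16.

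In the osteoclast list, Tnfsf11, which encodes RANKL, the ligand that osteoprotegerin binds, was not well above background on any array. RANKL's other receptor, Tnfrsf11a, was measured and differed by -0.18 and -0.10 with EPS at 0 min and 5 h. Csf1, the growth factor of macrophages and osteoclast precursors, stood 3.39-fold higher at the later time without EPS and 2.23-fold higher with EPS, from signals of 6957, 7405, 22164 and 22628. Its mean over probes was 0.97 and 0.64 on the log2 scale. Ctsk, cathepsin K, was 2.08-fold lower at 5 h than at 0 min with EPS, a difference of -1.06 that was -0.90 under normexp with an offset of 50, -0.92 under quantile normalization and -0.88 under median centring. None of the 7 measured genes passed 2-fold with EPS at 5 h, and their median was -0.13. Mmp9 was not among these 7, since it was well above background on 1 array alone, that with EPS at 5 h. Its signals were 7.51, 5.32, 7.87 and 79.7, and no lower bound was computed for it. Of 13 cartilage genes 5 were measured in that comparison, none past 2-fold, with a median of 0.16, and Col2a1 was not well above background on any array.

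**Figure D5:**
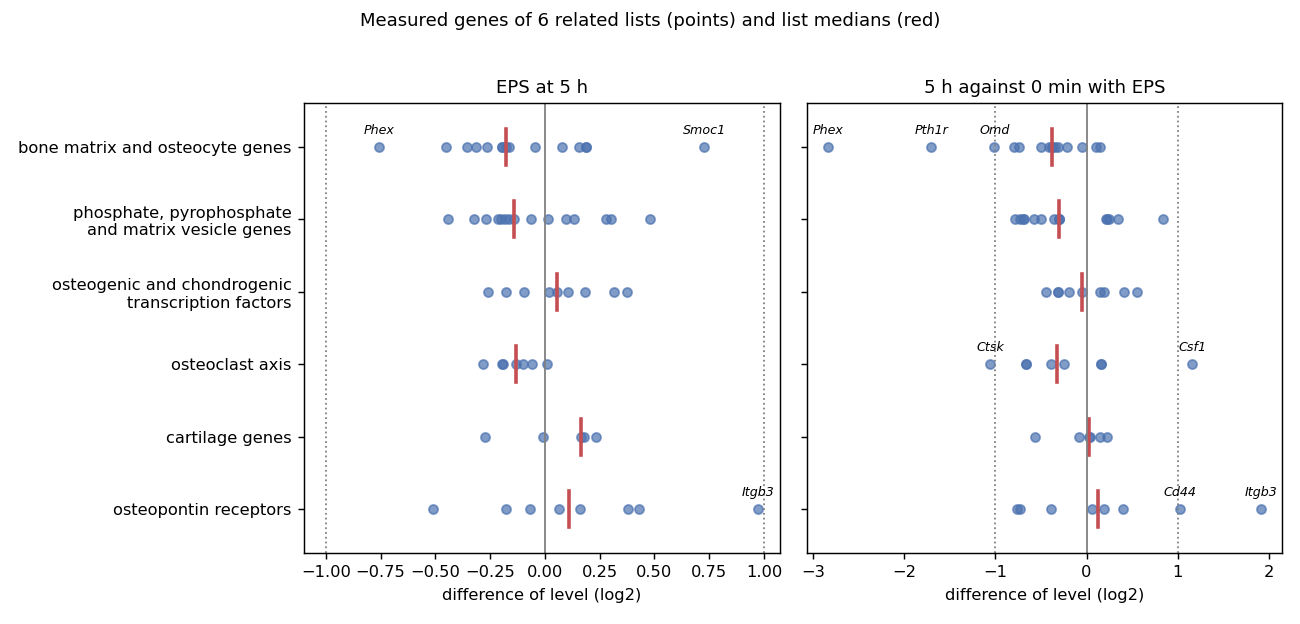
Difference of level with EPS at 5 h (left) and between 5 h and 0 min with EPS (right) for the measured genes of 6 lists (points, log2), with each list's median in red and dotted lines at 2-fold; genes with a difference of at least 0.7 on the left or 1 on the right are named. Itgb3 is the point farthest right in both panels (0.97 and 1.91), and Phex the point farthest left (-0.76 and -2.83).

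The labelled tissue was checked against markers. All 11 skeletal muscle markers were well above background on every array, with a median EPS difference of -0.03 at 5 h. Of 7 defining osteoblast genes on the array, Sp7, Ibsp, Sost and Ifitm5 were not well above background anywhere, and Bglap2, Dmp1 and Phex were. Bglap2 has near-identical neighbouring copies that a probe may not separate. Of 7 chondrocyte genes, Col2a1, Col9a1, Matn1 and Cnmd were not well above background anywhere. Among leukocyte genes, Ptprc, Lyz2 and Tyrobp were not, whereas Cd68, Csf1r, Itgam, Cd14 and Cd3e were well above it on all 4 arrays; the labelling protocol names leukocytes.

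Levels of other cell types' markers moved with the arrays as follows. Summed on the linear scale, where an array's 75th percentile is 1, the 9 detected of 10 fibroblast markers gave 277, 312, 263 and 227. Dcn and Col3a1 were the brightest of these and carried most of that sum. The 11 skeletal muscle markers gave 738, 819, 686 and 659, the same order of arrays. Both sums were thus lowest where Alpl, Spp1, Runx2 and Tnfrsf11b were highest. The muscle sum was mostly that of its brightest genes, such as Acta1, Myh8 and Tnnt1, and is not read as muscle content. Of the 11 muscle markers, 3 (Des, Myog and Myod1) peaked on that same array. Another 6 peaked right after stimulation and 2 on the unstimulated 0 min array. The median EPS difference of the 11 markers at 5 h was -0.03, and that of all genes was also -0.03. The 6 detected leukocyte markers gave 9.32, 8.67, 9.40 and 10.5. The 3 detected osteoblast genes gave 19.9, 17.4, 17.6 and 13.7, nearly all of it from Bglap2, whose probe may not separate its copies. The 3 detected chondrocyte genes gave 0.57, 0.69, 0.39 and 0.50. Most of the chondrocyte sum was Sox9, itself one of the 9 genes; without it the sum was 0.12, 0.11, 0.093 and 0.10. Of 6 osteoclast genes, 3 were detected with a value on all 4 arrays and gave 0.85, 0.81, 0.68 and 0.63, and the 3 detected of 6 endothelial and smooth muscle genes 3.13, 3.42, 2.94 and 1.94. Single markers moved further. Pdgfrb, a receptor of fibroblasts and pericytes, was 3.41-fold lower at 5 h than at 0 min without EPS, 5.39-fold lower with EPS, and differed by -0.87 (SE 0.20) with EPS at 5 h. Pdgfra, of the same list, was 1.65-fold and 1.37-fold higher over time. Of the 9 fibroblast markers measured, 3 were higher over time without EPS and 1 with EPS, with medians of -0.13 and -0.58. Cd14, a receptor for bacterial lipopolysaccharide on myeloid cells, was 2.30-fold and 3.97-fold higher over time and differed by 0.91 (SE 0.20) with EPS at 5 h. The 5 leukocyte markers measured, Cd14 among them, had a median of -0.13 for EPS at 5 h, with 2 of them higher. Over time their medians were -0.24 without EPS, with 2 higher, and 0.13 with EPS, with 3 higher. Cd68, a macrophage marker with dim signals of 106, 33.6, 27.7 and 50.2, was 3.58-fold lower over time without EPS and 2.52-fold lower right after EPS than without it, both under 2-fold with normexp at an offset of 50 (-0.85 and -0.58). The part of the cell makeup in the differences above was not tested.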

How the data were processed

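Total RNA of 4 samples was hybridized to single-colour Agilent arrays, per the labels. Per the file headers, Agilent Feature Extraction 10.7.3.1 made the deposited intensities, one per spot and corrected for background; the deposited value table holds the same intensities, equal for all 44397 spots, with column medians of 75.2, 57.6, 64.0 and 69.4, so it is linear, uncentred and unscaled. Control spots and spots with an outlier flag (112 to 141 non-control spots per array) were left out, and none was saturated. Spots of a probe were averaged on the log2 scale after subtracting the array's 75th percentile, a gene was its brightest probe, and 26055 of 39429 probes were named through RefSeq (GRCm38.p6). A gene was measured in a comparison if well above background on both arrays. A member so on 1 of them got a lower bound, and a list gene so on 1 of them got none. The number of arrays limits the precision.

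The genes and lists were chosen with earlier results of these data known. Named genes are the members and, in lists, genes past 2-fold and some of those among the 3 largest differences per direction. Others were singled out after their values were seen: Itgav, Itgb1, Cbfb, Runx1, Tnfrsf11a, Col1a1, Mmp9, Sox6, Zbtb16 and the marker genes named by detection, brightness or highest array. The rule for genes with a like pattern needed a range of levels of at least 1, which no member measured on all arrays reached. Alternatives were 2 normexp offsets (limma 3.58.1, R 4.3.3), the background-subtracted signal, 2 scalings, 3 filters, the mean of probes and outliers kept. Scripts (Python 3.11.15) were tested on simulated data. A leukocyte marker of the lists is not reported here.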

Additional observations from a re-analysis of the deposited data

Results flagged for a closer look

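For 4 genes of the lists the EPS difference had opposite signs at 0 min and 5 h, each larger than its error in the scanner software's model; the difference between the times was not tested, and each value rests on 2 arrays. The share of all genes that met the same rule is not given, so nothing is read from the count of 4. Itgb3 differed by -0.49 at 0 min and 0.97 at 5 h. Ctsk differed by 0.63 at 0 min and -0.28 at 5 h. Col10a1, a collagen of hypertrophic cartilage, differed by -0.26 (SE 0.21) and 0.24 (SE 0.22). Under normexp with an offset of 50 its differences were -0.16 and 0.10, both smaller than these errors. Cd68, a macrophage marker, differed by -1.33 and 0.64, or -0.58 and 0.11 under normexp with an offset of 50. Outlying samples within a group could not be looked for with 1 array per group.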

How the results depend on the processing

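Of 31 EPS, time and effect differences of the members, 24 kept their sign under every alternative that gave a value, and the other 7 were at most 0.08 in size. For EPS at 5 h the count of members past 2-fold went from 1 (Alpl) to 0 under normexp with an offset of 50, normexp with an offset of 16, the background-subtracted signal and the filter on all 4 arrays, which leaves Alpl out. Over time without EPS it went from 0 to 1 (Alpl) with the filter on at least 1 array and with no filter, where dim signals enter. Over time with EPS it went from 0 to 1 (Spp1) under median centring and to 1 (Alpl) with those 2 filters, and for the difference of EPS effects to 1 (Alpl) with them. Counts over all genes past 2-fold were 250 (EPS at 0 min), 225 (EPS at 5 h), 869 and 1118 (over time without and with EPS) and 361 (difference of effects). They were 71, 74, 414, 598 and 107 under normexp with an offset of 50, 108, 113, 543, 723 and 158 with an offset of 16, 1168, 1225, 1937, 2370 and 1837 with the filter on at least 1 array, and 2248, 2530, 3112, 3942 and 3979 without a filter. Median centring moved the median of all genes over time without EPS from -0.02 to 0.11, and the background-subtracted signal that over time with EPS from -0.08 to -0.20; it changed the split for the difference of effects from 181 higher and 180 lower to 141 and 251, for EPS at 5 h to 111 and 131 and over time with EPS to 319 and 928. Leaving out an array was not possible with 1 per group. No paired analysis was possible because each group has 1 array and no replicate number.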
